A study of Mus musculus with 19 samples.

Results

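The 10 genes described here encode the core machinery that fuses and divides mitochondria: Mfn1, Mfn2, Opa1, Oma1, Yme1l1, Dnm1l, Fis1, Mff, Mief1 and Mief2. They were chosen as a list of gene names, and are 10 of the 29726 genes in the deposited table. Hearts came from 19 wild-type C57BL/6NTac mice, 2 months old, that had been raised germ-free and then received a gut microbiome by fecal transfer. The groups were 5 males with a dysbiotic microbiome, 4 males with a normal microbiome, 5 females with the dysbiotic and 5 females with the normal microbiome. The dysbiotic microbiome came from Il10-/- donors and the normal one from wild-type donors, so Il10 was lacking in the donors of the dysbiotic microbiome and in none of the mice whose hearts were measured. Neither the number of donors nor the caging is given, so microbiome, donor and cage cannot be told apart.

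Mitochondria join and split continuously, and the balance between both sets their shape and size. The mitofusins MFN1 and MFN2 are GTPases that fuse outer membranes, while the dynamin-like GTPase OPA1 fuses inner membranes and is cleaved by the proteases OMA1 and YME1L1. Division is driven by the GTPase DRP1, the product of Dnm1l, which is recruited to the outer membrane by MFF, MiD51 (Mief1) and MiD49 (Mief2), with FIS1 as a further adaptor. Loss of both mitofusins from adult mouse heart muscle leads to cardiomyopathy, and much of the control of this machinery acts on the proteins, by cleavage and phosphorylation, which RNA levels do not report.

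Mief2 and Opa1 were the members that passed the test in at least 1 comparison, so the sequence around their start of transcription is shown. Both are RefSeq sequences on GRCm38.p6, plus strand, from 250 bases before the start to 50 bases after it. The Mief2 window is chr11:60728148-60728447 and the Opa1 window is chr16:29579084-29579383. Capitals mark, in Mief2, the E-box CACGTG, a motif of basic helix-loop-helix factors, which begins 24 bases before the start. In Opa1 they mark a run of letters that holds GCGCATGC, a motif of the transcription factor NRF1, on both strands, and begins 59 bases before the start.
Mief2: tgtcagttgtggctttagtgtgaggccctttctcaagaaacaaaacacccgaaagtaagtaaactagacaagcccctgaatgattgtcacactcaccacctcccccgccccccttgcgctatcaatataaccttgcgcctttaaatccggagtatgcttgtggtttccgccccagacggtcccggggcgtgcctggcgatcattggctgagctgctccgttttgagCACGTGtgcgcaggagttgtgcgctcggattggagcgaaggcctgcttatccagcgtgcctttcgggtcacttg
Opa1: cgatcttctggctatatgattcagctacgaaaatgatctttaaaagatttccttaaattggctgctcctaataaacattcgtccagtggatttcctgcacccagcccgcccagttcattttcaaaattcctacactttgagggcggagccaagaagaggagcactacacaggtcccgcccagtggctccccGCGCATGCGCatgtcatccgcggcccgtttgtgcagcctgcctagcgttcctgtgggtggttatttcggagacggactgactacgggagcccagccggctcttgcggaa

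All 10 genes had at least 1 such window, 15 in all, and these were searched on both strands for 10 motifs, beside 32851 windows of all genes. The windows of all genes were not limited to genes expressed in these hearts, as all 10 members were. The E-box was in 1 of the 15, that of Mief2, and in 7.15% of all windows. The NRF1 motif was in 1 of the 15, that of Opa1, and in 2.71% of all windows. The ETS motif ACCGGAAGT was found for Mief1 and in 1.1% of all windows. The GC box GGGCGG was in 13 of the 15 windows and in 35.66% of all, with at least 1 match for each of the 10 genes. CCAAT was in 7 of the 15 and 37.41% of all windows, and TGACG in 9 of the 15 and 20.81% of all. Windows of the same gene can overlap, as those of Mff and Mfn2 do, so the same letters can count more than once. The genes with TGACG were Mff, Mfn1, Mfn2, Mief1, Oma1 and Yme1l1. The estrogen-related receptor motif AAGGTCA (4.72% of all windows) and its longer form TNAAGGTCA (1.28%) were in none of the 15. TGACGTCA (1.79%), which contains TGACG, and the YY1 motif AAGATGG (6.34%) were in none of them either. A match is one of letters, and no binding was measured.

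Poly(A) RNA of a pulverised piece of heart was sequenced, and values are FPKM, a fragment count scaled to transcript length and library size. The labels call the material cardiac cells, but the pieces held other cells too: all 7 cardiomyocyte markers and all 5 markers each of endothelium, fibroblasts, smooth muscle and macrophages averaged at least 1 FPKM, as did all 5 red blood cell and 3 of 5 adipocyte markers, while none of 5 lymphocyte and none of 4 skeletal muscle markers did. In such bulk RNA, fewer cells of a type and less RNA per cell cannot be told apart. Read depth is not known, because the table holds no counts. Genes of the mitochondrial genome, which include none of the 10, held 51.1% to 57.4% of summed FPKM. Dysbiotic male replicate 5 stood farthest from its group mean, with a root mean square deviation of 0.268 on the log2(FPKM + 1) scale against 0.122 to 0.218 in the other libraries. The FPKM sum of 5 liver genes was extreme in 4 libraries, with 1.36 in that heart, 1.2 and 0.299 in dysbiotic female replicates 3 and 5, and 702 in normal male replicate 1. Where a call of the 10 genes changes without these libraries, the value without them is given beside the result or in the closing section.

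The 10 genes are given here in the order of their levels, in FPKM as mean ± SD over the 19 hearts. Mfn2 was the highest at 111 ± 6.66 FPKM, above 97.7% of the 10866 genes that passed the filter of at least 1 FPKM in at least 4 libraries. Mfn1 followed at 47.4 ± 2.27 FPKM. Fis1 (23.1 ± 2.78 FPKM), Dnm1l (20.4 ± 0.897 FPKM) and Opa1 (16.7 ± 1.33 FPKM) came next. These 3 overlapped as neighbours, with Fis1 above Dnm1l in 17 of 19 hearts and Dnm1l above Opa1 in 19. Oma1 averaged 11.0 ± 0.78 FPKM. Mief2 (7.69 ± 1.01 FPKM) and Mff (7.66 ± 0.369 FPKM) were alike in level, with Mief2 the higher in 12 of 19 hearts. Yme1l1 averaged 6.67 ± 0.398 FPKM. Mief1 was the lowest at 2.05 ± 0.156 FPKM, above 29.4% of genes. The ranges over the hearts were separate between Mfn2 and Mfn1 (a 2.34-fold step between the means), Mfn1 and Fis1 (2.05-fold), Opa1 and Oma1 (1.51-fold), and Yme1l1 and Mief1 (3.26-fold). The ranges of the other neighbours overlapped. Of these, Oma1 was above Mief2, and Mff above Yme1l1, in all 19 hearts. All 10 genes passed the filter. Their coefficients of variation over the hearts ran from 4.4% for Dnm1l to 13.1% for Mief2. For 8 of the 10 genes it was below the median of the genes tested, 11.4%, and Fis1 (12.0%) and Mief2 were the exceptions.

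**Figure D1:**
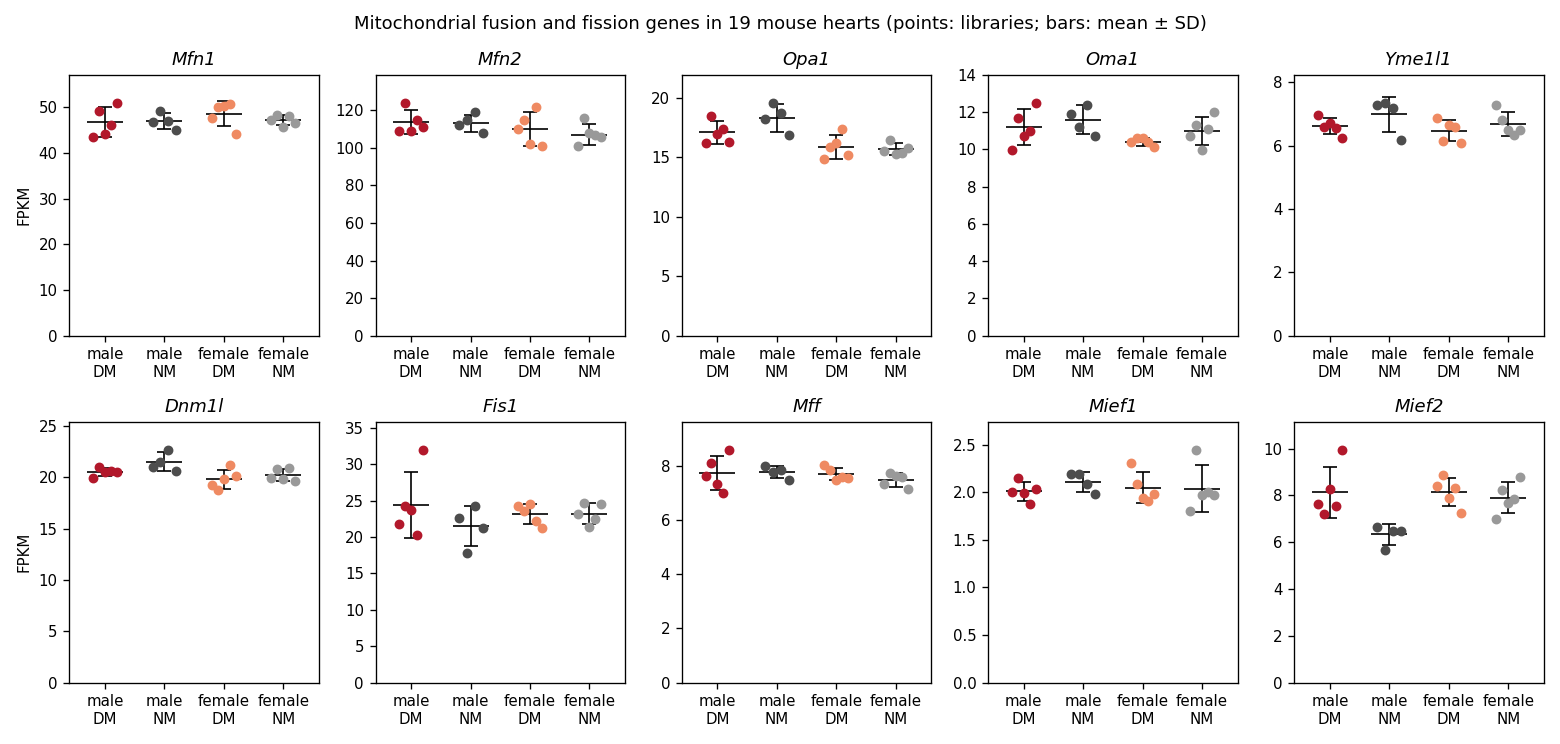
FPKM (y axis, from 0, scaled per panel) of each gene in hearts of dysbiotic (DM) and normal (NM) males and females, with a point per heart and bars for the mean ± SD of each group of 4 or 5 hearts. Dysbiotic and normal males do not overlap for Mief2 (7.22 to 9.96 against 5.67 to 6.67 FPKM), and the microbiome groups of each sex overlap for the other genes.

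The comparison of dysbiotic with normal microbiomes asks whether a colitis-associated gut community bears on the heart. Of the 10 genes, Mief2 rose in males, and no other member passed the test in males, in females or over both sexes. In males this was 1 of 10, where 1.91% of all genes passed (0.957% higher). In females it was 0 of 10, where 2.84% of all genes passed. Over both sexes it was 0 of 10, where 5.67% of all genes passed. The test is that of limma, two-sided, and a member passed where its Benjamini-Hochberg adjusted p over the 10866 genes was under 0.05. At an unadjusted p under 0.05, limma gave Mief2 alone in males (13.6% of all genes), 0 members in females (13.9%) and Mief2 alone over both sexes (17.4%). Differences are on the log2(FPKM + 1) scale, dysbiotic minus normal. Their median over the 10 genes was -0.03 in males, 0.01 in females and -0.004 over both sexes, beside 0.02, 0.01 and 0.02 over all genes.

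Neither mitofusin passed, and the intervals of their differences were narrow. Mfn2 had 109, 124, 109, 115 and 111 FPKM in dysbiotic males, against 112, 115, 119 and 108 FPKM in normal males. In females, Mfn2 had 110, 115, 102, 122 and 101 FPKM with the dysbiotic microbiome, against 101, 116, 108, 107 and 106 FPKM with the normal one. The groups overlapped in both sexes, and each held hearts near 110 FPKM. The difference of Mfn2 over both sexes was 0.02 ± 0.04 (SE), with a 95% confidence interval of -0.07 to 0.10 and a limma adjusted p of 0.893. Mfn1 ranged from 43.6 to 51.0 FPKM in dysbiotic males and from 45.1 to 49.2 FPKM in normal males. In females it ranged from 44.1 to 50.7 FPKM with the dysbiotic and from 45.8 to 48.3 FPKM with the normal microbiome. Over both sexes the difference of Mfn1 was 0.02, with an interval of -0.06 to 0.09. Within a heart, Mfn2 was 2.02 to 2.53 times Mfn1. The geometric mean of that ratio was 2.43 in dysbiotic and 2.41 in normal males, and 2.26 in dysbiotic and 2.27 in normal females.

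Opa1, the inner membrane GTPase, had 16.2, 18.5, 17.0, 17.4 and 16.3 FPKM in dysbiotic males, against 18.2, 19.6, 18.7 and 16.9 FPKM in normal males. Dysbiotic males 1 and 5 were below every normal male, and the other 3 lay within their range. In females, Opa1 had 14.9, 15.9, 16.2, 17.4 and 15.2 FPKM with the dysbiotic microbiome, against 15.5, 16.5, 15.3, 15.4 and 15.8 FPKM with the normal one, and the groups overlapped. The difference was -0.10 ± 0.05 (SE) in males (interval -0.21 to 0.01, limma adjusted p = 0.446) and 0.02 ± 0.05 in females (-0.09 to 0.12, adjusted p = 0.947).

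Neither of the OPA1 proteases passed. Oma1, which cleaves OPA1 when mitochondria are stressed, averaged 11.2 ± 0.969 FPKM in dysbiotic and 11.6 ± 0.766 FPKM in normal males (SD, n = 5 and 4). In females it averaged 10.4 ± 0.212 FPKM with the dysbiotic and 11.0 ± 0.744 FPKM with the normal microbiome (SD, n = 5 each). Its difference over both sexes was -0.06, with an interval of -0.14 to 0.03. Yme1l1, which cleaves OPA1 under normal conditions, averaged 6.61 ± 0.258 FPKM in dysbiotic and 6.99 ± 0.557 FPKM in normal males. In females it averaged 6.47 ± 0.339 FPKM with the dysbiotic and 6.68 ± 0.376 FPKM with the normal microbiome. Its difference over both sexes was -0.05, with an interval of -0.13 to 0.02. The ratio of Oma1 to Yme1l1 ran from 1.43 to 1.99 over the 19 hearts. Its geometric mean was 1.69 in dysbiotic and 1.65 in normal males, and 1.61 in dysbiotic and 1.64 in normal females.

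Dnm1l, the division GTPase, had 19.9, 21.0, 20.5, 20.6 and 20.5 FPKM in dysbiotic males, against 21.0, 21.5, 22.7 and 20.6 FPKM in normal males. Of the dysbiotic males, 4 lay below every normal male, replicate 4 by less than the rounding shown, and replicate 2 lay within their range. The difference in males was -0.06 ± 0.04 (SE; interval -0.15 to 0.03). It did not pass in limma (adjusted p = 0.549). The exact permutation test of this gene alone gave an unadjusted p of 0.0476, where the smallest that 126 splits allow is 0.00794. For the members other than Mief2 and Dnm1l, the unadjusted exact permutation p in males was 0.119 (Opa1) to 0.944 (Mfn2). Over all members in females it was 0.135 (Oma1) to 0.952 (Mief1). In females, Dnm1l had 19.2, 18.8, 19.8, 21.2 and 20.1 FPKM with the dysbiotic microbiome, against 19.9, 20.8, 19.8, 20.9 and 19.6 FPKM with the normal one. These groups overlapped, and the difference was -0.03, with an interval of -0.11 to 0.06. The ratio of Opa1 to Dnm1l sets a fusion gene against the division gene. Its geometric mean was 0.832 in dysbiotic and 0.853 in normal males, and 0.803 in dysbiotic and 0.778 in normal females.

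Among the genes that bring DRP1 to the membrane, Mief2 had 7.65, 7.22, 8.26, 7.56 and 9.96 FPKM in dysbiotic males, against 6.67, 5.67, 6.49 and 6.49 FPKM in normal males. Every dysbiotic male was above every normal male. With the normal microbiome, every female was also above every male, and for 18.5% of all genes the sexes did not overlap there, in either direction. Groups of males that do not overlap were found for 4.70% of all genes tested and for no other member. The male difference of Mief2 was 0.31 ± 0.08 (SE), with an interval of 0.15 to 0.47, an adjusted p of 0.0433 in limma and an unadjusted exact permutation p of 0.0159. In females, Mief2 had 8.41, 8.87, 7.89, 8.30 and 7.25 FPKM with the dysbiotic microbiome, against 6.99, 8.21, 7.67, 7.86 and 8.80 FPKM with the normal one. The female groups overlapped, as they did for all 10 genes (4.85% of all genes did not overlap), and the difference was 0.04 ± 0.07 (SE; interval -0.11 to 0.19, limma adjusted p = 0.906).

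The responses of the sexes were then compared directly. The female minus male response of Mief2 was -0.27 ± 0.11 (SE; interval -0.50 to -0.05), with an unadjusted p of 0.0193 and an adjusted p of 0.541 in limma, so a difference between the sexes in this response did not pass. None of the 10 genes passed in this comparison, where 0.396% of all genes did, and Mief2 was the 1 member with an unadjusted limma p under 0.05 (7.41% of all genes). Over both sexes, Mief2 averaged 8.14 FPKM with the dysbiotic and 7.12 FPKM with the normal microbiome, a difference of 0.18 ± 0.05 (SE; interval 0.06 to 0.29, limma adjusted p = 0.0628), which did not pass. It passed without dysbiotic male 2, normal female 5 or dysbiotic female 5 (0.19 each, adjusted p in limma 0.0402 to 0.0432) and without the 4 libraries of extreme liver sums (0.18, adjusted p in limma 0.0299). In the authors' deposited table, which pools the sexes, Mief2 had a ratio of 1.129 with p = 0.027 and q = 0.454, and no other member had p under 0.05.

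The male call of Mief2 lay close to the threshold. It was made under 15 of 30 settings, the reported one included, with the dysbiotic males higher by 0.24 to 0.35 in each. It was lost without any 1 of normal males 2, 3 and 4 (adjusted p in limma 0.179, 0.101 and 0.0827) or of dysbiotic males 1, 3 and 5 (0.0552, 0.0836 and 0.0788). Without any 1 of normal females 2, 3 and 4 or dysbiotic females 3 and 4, which enter through the shared estimate of spread, the adjusted p was 0.0513 to 0.0554. Dysbiotic male replicate 5, which stood apart from its group, had the highest Mief2 of all hearts, and without it the difference was 0.24. Without the 4 libraries of extreme liver sums it was 0.27 (adjusted p in limma 0.0550). The liver sum was 1.36 to 333 FPKM in dysbiotic and 56.3 to 702 FPKM in normal males, and its part in the Mief2 values was not tested otherwise. Summed adipocyte markers were 87.5 to 141 FPKM in dysbiotic and 86.5 to 102 FPKM in normal males, and summed red blood cell markers 982 to 2760 FPKM in dysbiotic and 1010 to 1710 FPKM in normal males, and their part was not tested. Mitochondrial genome transcripts held 51.1% to 56.5% of summed FPKM in dysbiotic and 54.7% to 57.4% in normal males, and with libraries scaled to the sum of the nuclear genes the difference was 0.30 (adjusted p in limma 0.0393). Mief2 had the highest GC content of the 10 genes, at 57.6% of its longest transcript, and the slope of log2(FPKM + 1) on GC content differed among libraries (from -0.084 to 0.062 per 10 percentage points). After a correction for GC content the male difference was 0.26 (adjusted p in limma 0.0192).

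**Figure D2:**
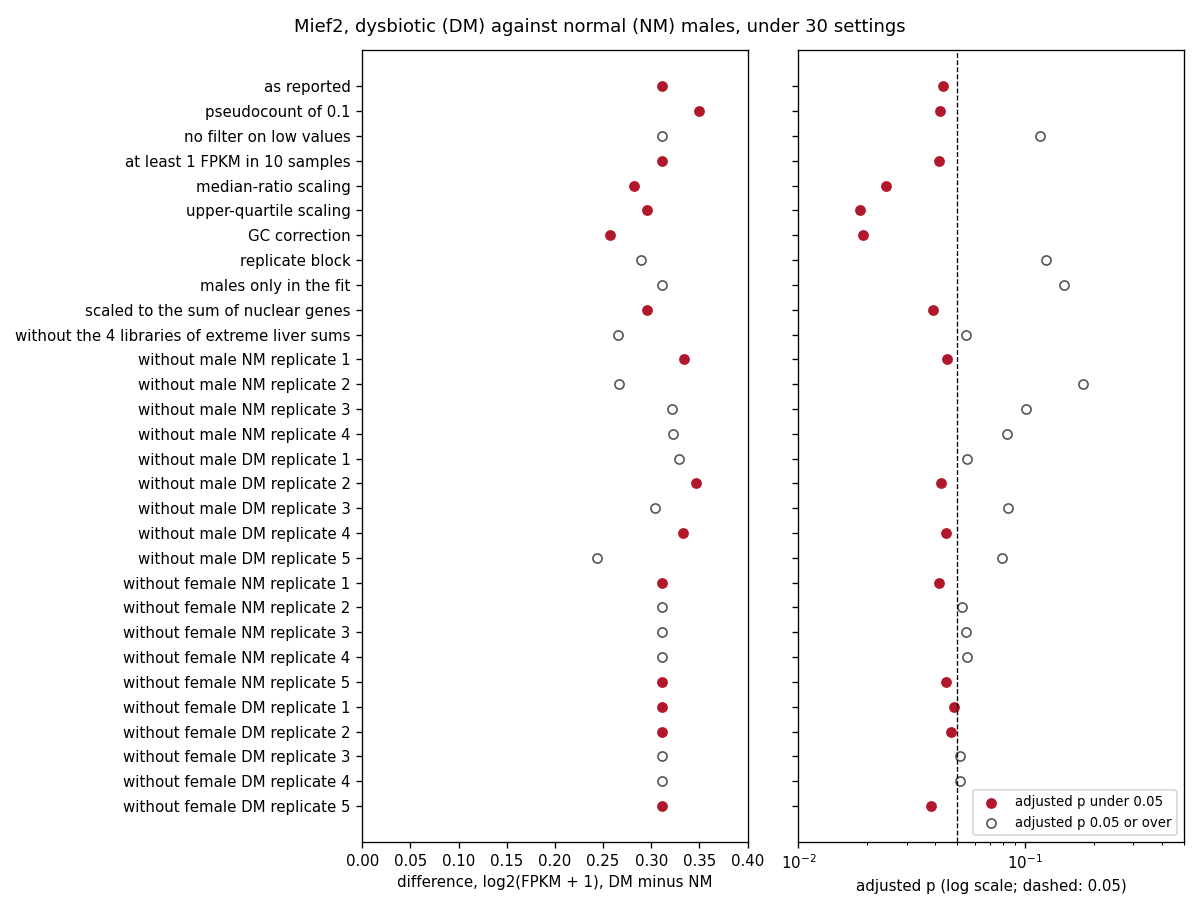
Difference of Mief2 between dysbiotic (DM) and normal (NM) males on the log2(FPKM + 1) scale (left) and its limma adjusted p on a log axis (right), with a point for each of 30 settings, filled where the adjusted p is under 0.05. The difference is 0.24 to 0.35 throughout, and 15 of the points are filled.

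Fis1, the further DRP1 adaptor, had 21.8, 24.2, 23.7, 20.3 and 32.0 FPKM in dysbiotic males, against 22.6, 17.8, 24.2 and 21.2 FPKM in normal males. Its coefficient of variation was 18.5% in dysbiotic and 12.8% in normal males. The groups overlapped, and the highest value was again in dysbiotic male replicate 5. The male difference was 0.17 ± 0.10 (SE; interval -0.04 to 0.38, limma adjusted p = 0.488), and 0.07 without that heart. In females, Fis1 averaged 23.1 ± 1.39 FPKM with the dysbiotic and 23.2 ± 1.41 FPKM with the normal microbiome (SD, n = 5 each). The interval of that difference was -0.20 to 0.19.

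Mff, the main DRP1 receptor in many cell types, ranged from 7.0 to 8.6 FPKM in dysbiotic and from 7.47 to 7.99 FPKM in normal males. In females it ranged from 7.49 to 8.04 FPKM with the dysbiotic and from 7.13 to 7.72 FPKM with the normal microbiome. Its difference over both sexes was 0.01, with an interval of -0.06 to 0.08. Mief1, the close relative of Mief2, averaged 2.01 ± 0.097 FPKM in dysbiotic and 2.11 ± 0.102 FPKM in normal males (SD, n = 5 and 4), and 2.05 ± 0.162 FPKM in dysbiotic and 2.04 ± 0.245 FPKM in normal females (SD, n = 5 each). Its difference over both sexes was -0.02, with an interval of -0.10 to 0.06. The ratio of Mief1 to Mief2 was 0.204 to 0.298 in dysbiotic males and 0.305 to 0.386 in normal males, which do not overlap. The Mief2 values alone already separate these males, so the ratio is not a separate result. In females it was 0.23 to 0.274 with the dysbiotic and 0.224 to 0.299 with the normal microbiome.

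**Figure D3:**
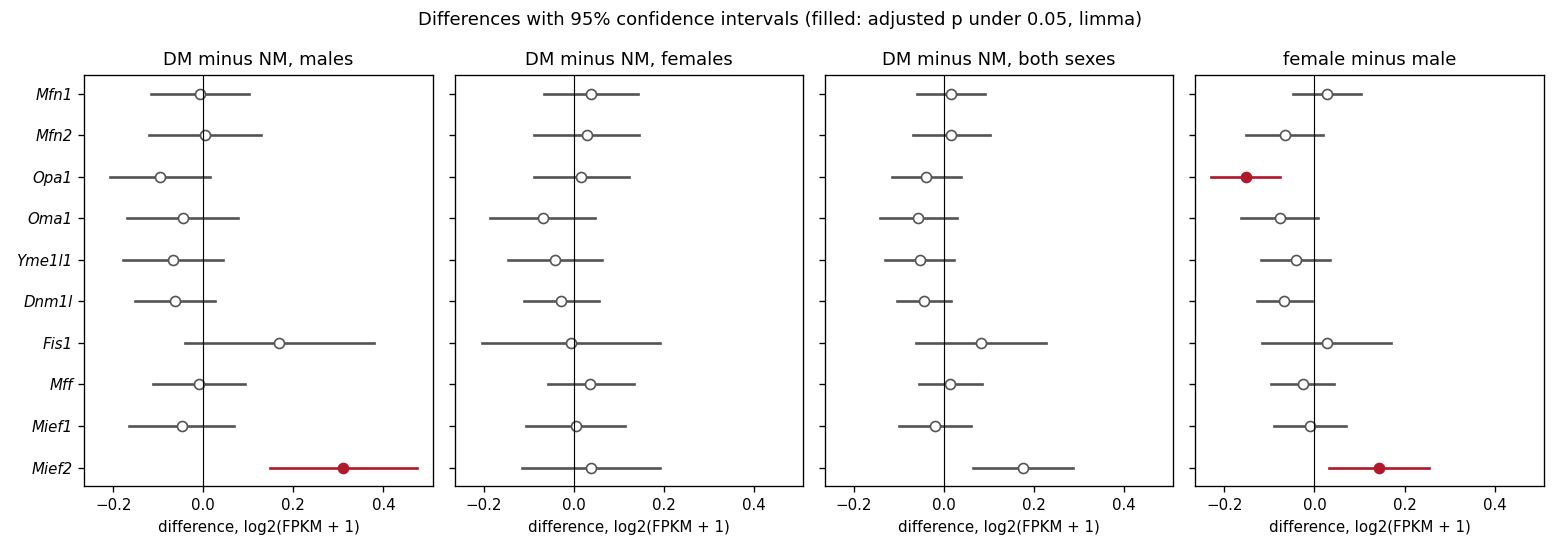
Difference of each gene on the log2(FPKM + 1) scale (x axis) with its 95% confidence interval, for dysbiotic (DM) minus normal (NM) in males, in females and over both sexes, and for female minus male; filled points have a limma adjusted p under 0.05. Mief2 in males (0.31), and Opa1 (-0.15) and Mief2 (0.14) between the sexes, are filled.

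Between the sexes, Opa1 was lower and Mief2 higher in females. These are 2 of 10, where 31.4% of all genes passed (23.4% higher and 7.94% lower in females). Opa1 averaged 15.8 FPKM in females and 17.7 FPKM in males, a difference of -0.15 ± 0.04 (SE; interval -0.23 to -0.08, adjusted p = 0.00381 in limma; unadjusted exact permutation p = 0.00085). With the normal microbiome, all 5 females (15.3 to 16.5 FPKM) were below all 4 males (16.9 to 19.6 FPKM), as was the case for 4.47% of all genes, with 18.5% of all genes not overlapping in either direction. With the dysbiotic microbiome the sexes overlapped for Opa1 (14.9 to 17.4 FPKM in females against 16.2 to 18.5 FPKM in males), where 9.49% of all genes did not. The call of Opa1 held under all 10 other settings of the fit (-0.21 to -0.15) and without each of the 19 libraries in turn.

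The sex difference of Mief2 was less firm. Mief2 averaged 8.02 FPKM in females and 7.23 FPKM in males, a difference of 0.14 ± 0.05 (SE; interval 0.03 to 0.26, adjusted p = 0.0465 in limma; unadjusted exact permutation p = 0.0396). With the normal microbiome it averaged 7.91 FPKM in females and 6.33 FPKM in males, and with the dysbiotic microbiome 8.14 FPKM in females and 8.13 FPKM in males. With single hearts left out, the call held without normal male 1, dysbiotic male 5, normal female 1 or dysbiotic female 5, and was lost without any 1 of the other hearts (difference then 0.12 to 0.15, adjusted p in limma 0.0552 to 0.11). Without the 4 libraries of extreme liver sums it was 0.22 (adjusted p = 0.00239 in limma). Median-ratio scaling gave 0.09 (adjusted p = 0.137 in limma), and after the GC correction the difference was 0.04 (adjusted p = 0.518 in limma). The GC slope ran from -0.021 to 0.062 in females and from -0.084 to 0.037 in males. The ranges overlapped through normal female 1 (-0.021) and dysbiotic male 5 (0.037). The other females had 0.012 to 0.062 and the other males -0.084 to -0.018, so GC slope and sex largely went together. Dnm1l, at 18.8 to 21.2 FPKM in females and 19.9 to 22.7 FPKM in males, did not pass (-0.07, adjusted p = 0.0877 in limma; unadjusted exact permutation p = 0.00819). For the members other than Opa1, Mief2 and Dnm1l, the unadjusted exact permutation p between the sexes was 0.0636 (Oma1) or more. Under a median-ratio scaling of the libraries, 5 members passed, all lower in females: Mfn2, Opa1, Oma1, Dnm1l and Mff. Over all genes that scaling gave 1717 higher and 1820 lower in females, against 2548 and 863 as reported.

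The 10 genes were also compared with each other across hearts, after the mean of each group was subtracted, with 100000 permutations within groups and p-values adjusted over the 45 pairs. The values of a pair come from the same libraries and share their scaling and any difference in RNA quality, and the median r was 0.28. By Pearson's r, 5 of the 45 pairs passed, all positive, each with an adjusted permutation p of 0.0406. Pairs of other genes were not tested, so no share over all genes stands beside this count. Whether these pairs go beyond other pairs of genes in the same libraries is therefore not known. Fis1 and Mief2 had r = 0.75 and rho = 0.68 (adjusted permutation p of rho 0.0606). Without the 2 hearts farthest from the median of the first gene named, r was 0.53, and without dysbiotic male replicate 5 it was 0.60. The 2 hearts left out were chosen in this way for every pair, so hearts far out in the second gene alone stayed in. Oma1 and Fis1 had r = 0.73 and rho = 0.78 (adjusted permutation p of rho 0.0106), and r = 0.62 without 2 hearts. The fusion GTPases Mfn2 and Opa1 had r = 0.70 and rho = 0.66 (adjusted permutation p of rho 0.0927), and r = 0.50 without 2 hearts. Mfn1 and Oma1 had r = 0.63 and rho = 0.61 (adjusted permutation p of rho 0.131), and r = 0.56 without 2 hearts. The DRP1 receptors Mff and Mief1 had r = 0.57 and rho = 0.72 (adjusted permutation p of rho 0.00945), and r = 0.69 without 2 hearts. By Spearman's rho, Oma1 with Fis1 and Mff with Mief1 passed. Mfn1 and Mfn2 had r = 0.52 (adjusted permutation p = 0.254) and did not pass.

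**Figure D4:**
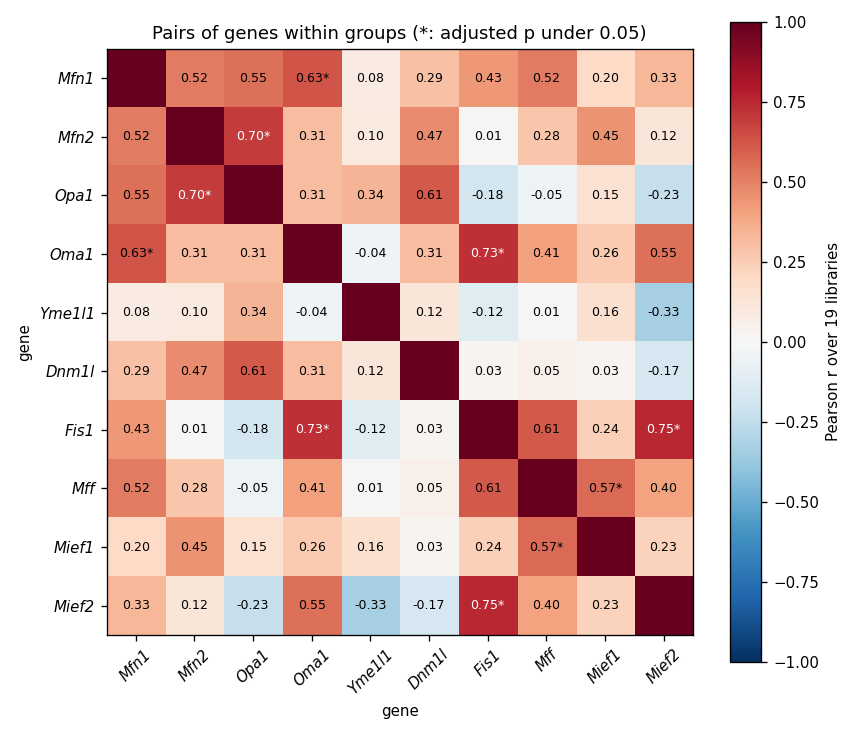
Pearson r of each pair of genes over 19 hearts, on log2(FPKM + 1) after subtraction of group means; red is positive, blue is negative, and stars mark an adjusted permutation p under 0.05. The 5 starred pairs are all positive, with r from 0.57 to 0.75.

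Of all other genes tested, those whose pattern over the 19 hearts was most like that of Mief2 within groups were Emc9, a subunit of a membrane protein insertion complex (r = 0.86, rho = 0.83), and Rplp1, a ribosomal protein gene (r = 0.85, rho = 0.87). The median size of r with Mief2 over 10865 genes was 0.27.

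Genes around this machinery were taken from 5 lists of 60 genes, of which 52 were tested. With the dysbiotic microbiome over both sexes, 1 of the 52 was higher and 2 were lower, a share near the 5.67% of all genes that passed. All 3 were regulators of mitochondrial biogenesis (8 of 9 tested). Ppargc1a, the coactivator PGC-1α, averaged 11.2 FPKM with the dysbiotic and 25.1 FPKM with the normal microbiome, and fell by 1.06 ± 0.13 (SE; adjusted p = 0.000127 in limma). The nuclear receptor genes Esrrg (3.84 against 4.45 FPKM, -0.17 ± 0.05, adjusted p = 0.0332) and Esrrb (5.45 against 4.76 FPKM, 0.16 ± 0.05, adjusted p = 0.0407) changed in opposite directions. Both calls were near the threshold: with single hearts left out, Esrrb passed in 6 of 19 fits (without normal male 1, dysbiotic males 1 or 3, normal female 5, or dysbiotic females 3 or 5; adjusted p in limma over the 19 fits 0.00557 to 0.0868). Esrrg passed in 10 of 19 (0.0198 to 0.0896), and was lost without normal males 2 or 3, dysbiotic male 2, normal females 1, 3 or 4, or dysbiotic females 2, 3 or 5. With no filter on low values neither passed (adjusted p in limma 0.0876 for Esrrb and 0.0761 for Esrrg). Esrrb was also lost with the replicate number as a block (adjusted p in limma 0.088) and with scaling to the nuclear genes (0.0648). Without the 4 libraries of extreme liver sums Esrrg did not pass (-0.13, adjusted p in limma 0.0895). Tfam, a factor of the mitochondrial genome, passed in that fit, higher with the dysbiotic microbiome. In males and in females, Ppargc1a was the 1 of the 52 to pass (1.91% and 2.84% of all genes), and it was lower in both. With males alone in the fit, Ppargc1a did not pass (-1.05, adjusted p in limma 0.0831), and with each heart left out in turn it passed in 19 of 19 fits in either sex. The median of these 8 genes over both sexes was 0.06, beside 0.02 over all genes.

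None of the other 4 lists had a gene past the test for the microbiome as reported, over both sexes or in either sex. Inf2 passed, lower with the dysbiotic microbiome, over both sexes and in females with median-ratio scaling and with the GC correction. Mtx2, of the MICOS partners, passed in males, lower with the dysbiotic microbiome, under several settings. These were median-ratio scaling, upper-quartile scaling, without dysbiotic male 5 and without the 4 libraries of extreme liver sums. Without dysbiotic male 5, Mtx2 passed in females in the opposite direction, higher with the dysbiotic microbiome. Of 15 accessory fission genes tested among 19, the smallest p-values over both sexes were those of Inf2, a formin that builds actin at division sites (-0.11, adjusted p = 0.246 in limma), Ppp3ca, a calcineurin subunit (0.07, 0.325), and the dynamin Dnm2 (-0.06, 0.368). Of 12 tested among 14 accessory fusion and OPA1 processing genes, they were those of the kinase gene Pink1 (0.07, 0.312), the protease gene Spg7 (0.08, 0.382) and the prohibitin Phb2 (0.07, 0.467). Of 11 tested among 12 genes of the MICOS complex, which shapes cristae, and its partners, they were those of Chchd3 (0.05, 0.474), Apoo (-0.06, 0.523) and Micos10 (0.09, 0.541). For all 6 transport genes the adjusted p was 0.567 or more, with Trak2, an adaptor for mitochondrial transport, the smallest (-0.07). The medians of these 4 lists were -0.01, 0.02, 0.02 and -0.01, beside 0.02 over all genes.

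Between the sexes, 9 of the 52 genes were higher and 6 lower in females, against 23.4% and 7.94% of all genes. Of the genes named above, Pink1 (0.20 ± 0.04 SE, adjusted p = 0.000354 in limma), Dnm2 (0.12 ± 0.03, 0.00387) and Esrrb (0.18 ± 0.05, 0.00526) were higher, and Trak2 (-0.19 ± 0.05, 0.0121) was lower in females. The other genes that passed, named after their values were seen, were Usp30, Stoml2, Mul1, Senp3, Chchd6 and Mtx1, higher in females, and Kif5b, Rhot1, Mtfp1, Ppp3cb and Dnajc11, lower in females. Of the 6 transport genes, 3 were lower in females, at -0.31 for the motor gene Kif5b (adjusted p = 0.000265 in limma), -0.19 for Trak2 and -0.11 for the adaptor GTPase gene Rhot1 (adjusted p = 0.005). The split depended on the scaling: 5 were higher and 14 lower in females with median-ratio scaling, 7 and 13 with upper-quartile scaling, and 1 and 13 with the GC correction, where Pink1, Dnm2 and Esrrb did not pass. Kif5b, Trak2 and Rhot1 were lower in females under these 3 settings too. With single hearts left out, 8 to 12 were higher and 6 to 7 lower.

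By the GENCODE M21 annotation of GRCm38, the fusion genes lie at chr3:32529465-32579239 (Mfn1, plus strand), chr4:147873599-147904704 (Mfn2, minus strand) and chr16:29579334-29654884 (Opa1, plus strand). The protease genes lie at chr4:103313812-103371868 (Oma1, plus strand) and chr2:23156369-23199260 (Yme1l1, plus strand). Dnm1l lies at chr16:16312230-16358959 on the minus strand. The receptor genes, all on the plus strand, lie at chr5:136953275-136966234 (Fis1), chr1:82724890-82752394 (Mff), chr15:80234018-80253371 (Mief1) and chr11:60728398-60732951 (Mief2). Values are per gene, so transcripts of a gene are not told apart. Annotated genes that overlap a member and are in the table (for Mief2 the microRNA gene Mir5100, and others for Mfn2, Dnm1l and Mff) averaged 0.004 to 0.048 FPKM. Whether reads were counted by strand is not given in the sources used here. The protein-coding entry AC140267.1 within Mief1 has no value of its own under that name, so Mief1 values may include its reads.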

How the data were processed

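RNA of 19 mouse hearts was analysed in 4 groups taken from the sample labels. Per the submitters' processing notes, cutadapt 1.9, HISAT2 2.0.4, StringTie 1.3.4d and DESeq2 were used. The notes name the human build hg38, while 99.7% of the gene IDs are mouse Ensembl IDs found in GENCODE M21, so coordinates are those of GRCm38. The deposited table has, per the file headers, an FPKM value for each of 29726 genes in every heart. The authors' deposited ratio was checked to be mean dysbiotic over mean normal FPKM, with its log2 value beside it. The deposited q-value was checked to be a Benjamini-Hochberg adjustment of the authors' p-value, whose model is not stated. Low values did not fall on whole-read steps (2.9% to 17.6% within 0.02 of a step), so read counts were not recovered and depth is unknown.

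Values were tested as log2(FPKM + 1) by limma 3.58.1 under R 4.3.3, with a trended and robust prior and a mean for each group. The fit held all 19 hearts and the 10866 genes that reached 1 FPKM in 4 or more of them. The pseudocount of 1 understates changes of low genes. Single genes were also tested by exact permutation within sex or microbiome (Python 3.11.15, scipy 1.17.1). The exact permutation test had been planned only for members below the filter. As all 10 members passed the filter, its use here went beyond the plan. It was run on the members alone, so no share over all genes stands beside its p-values. The labels do not say that mice were caged apart, so p-values measure the spread between these samples. The limma script was tested on simulated data. The 10 members, the lists and the motifs were chosen with earlier results of these data known, and the alternatives without 4 libraries and with scaling to nuclear genes, and all alternatives for the lists, were added after seeing the data. All members are named. From each list, up to 3 genes with the smallest p over both sexes are named, and for a member that passed in a microbiome comparison the 2 genes most like it.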

Additional observations from a re-analysis of the deposited data

Results flagged for a closer look

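Of 40 sets of values (10 genes in 4 groups of 4 or 5 hearts), 1 held a value far from the others of its group. Yme1l1 was 6.16 FPKM in normal male replicate 4, while the other 3 normal males had 7.17 to 7.35 FPKM, and its gap to the nearest heart was over the 95% limit of Dixon's test. Chance gives about 1 such value in 20 sets.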

How the results depend on the processing

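Of the 10 genes, the number past the threshold in males was 0 in place of 1 with no filter on low values, with the replicate number as a block, with males only and without the 4 libraries of extreme liver sums. Over both sexes it was 1 in place of 0 (Mief2) with upper-quartile scaling, the GC correction and without those 4 libraries. Between the sexes it was 1 in place of 2 with no filter, the replicate block and additive terms for sex and microbiome, and 5 with median-ratio and upper-quartile scaling. With the GC correction it was 3, of which Mfn2 and Oma1 are not among the 2 as reported, while Mief2 was lost. With single libraries left out, it was 0 to 1 over both sexes, 0 to 1 in males, 0 in females, 0 for the difference of the responses and 1 to 2 between the sexes. The labels do not say whether the replicate numbers pair the samples. Of 27 same-numbered pairs, deviations from group means had r from -0.49 to 0.53, with 9 over 0.1. Of the 19 libraries, 3 were closest to one of their own number. Whether the numbers mark a shared batch was not tested otherwise. With the replicate block, Mief2 in males was 0.29 (limma adjusted p = 0.123).

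Signs turned only for differences that did not pass. Over both sexes, median-ratio scaling gave -0.016 for Mfn1, -0.015 for Mfn2 and -0.014 for Mff, and the GC correction -0.002 for Mfn2. In males, Mfn2 was -0.031, -0.015, -0.035 and -0.014 with median-ratio, upper-quartile, GC and nuclear-sum settings, and Mff 0.025 with GC. In females, Mief1 was -0.014, -0.002, -0.001 and -0.001 with those 4 settings, Opa1 -0.01 with median-ratio scaling and Fis1 0.006 without the 4 libraries. For the difference of the responses, Yme1l1 was -0.003 with GC and Oma1 0.006 without the 4 libraries. Between the sexes, Mfn1 was -0.032 and -0.027 and Fis1 -0.032 and -0.027 with median-ratio and upper-quartile scaling, Fis1 -0.049 and Mff 0.02 with GC, and Mff 0.008 and Mief1 0.011 without the 4 libraries. With single libraries left out, the ranges that crossed 0 were, over both sexes, -0.002 to 0.031 (Mfn2), -0.003 to 0.030 (Mff) and -0.036 to 0.002 (Mief1). In males they were -0.038 to 0.017 (Mfn1), -0.029 to 0.026 (Mfn2) and -0.044 to 0.022 (Mff), and in females -0.008 to 0.059 (Mfn2), -0.014 to 0.040 (Opa1), -0.034 to 0.024 (Fis1) and -0.025 to 0.052 (Mief1). For the difference of the responses they were -0.011 to 0.058 (Mfn2) and -0.061 to 0.014 (Oma1), and between the sexes -0.015 to 0.076 (Fis1) and -0.033 to 0.005 (Mief1). The cause was not tested. Unknown depth limits what can be said of single values, Mief1 at 2.05 FPKM most.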
